A study of Mus musculus with 9 samples.

Results

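The genes of the TGF-β pathway were examined in ChIC-Seq peak lists of PBRM1 and BRG1 from oviductal smooth muscle cells. The 10 genes were the ligands *Tgfb1*, *Tgfb2* and *Tgfb3*, the receptors *Tgfbr1*, *Tgfbr2* and *Tgfbr3*, and the intracellular transducers *Smad2*, *Smad3*, *Smad4* and *Smad7*, out of 21755 protein-coding genes. The list is by name and uses no measured value, although it was drawn up with earlier results of these data known. A site was a merged region of overlapping peaks, and a site belonged to a gene when it lay in the gene body or within 20 kb of either end in GENCODE vM21 on GRCm38. The 10 genes held 83 of the 82949 sites of the series on the autosomes and chromosome X.

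Primary oviductal muscle cells came from wild-type mice aged 8 to 12 weeks on day 2 (D2) of pregnancy, and no allele or drug separated the groups. The groups were anti-PBRM1 (also called BAF180) with 3 libraries, anti-BRG1 with 3 libraries and IgG with 3 samples. The IgG samples were not analysed here, so the background of the nuclease at these sites was not measured. PBRM1 is found in PBAF, one of the assemblies of the SWI/SNF remodeler, whereas BRG1 is a motor subunit that several of these assemblies share. In ChIC-Seq an antibody brings a fusion of protein A and micrococcal nuclease to its target in fixed cells, and the DNA fragments that the nuclease releases are sequenced. The cells were dispersed with enzymes, passed through a filter and plated for a few hours, and the labels describe no sorting on a muscle marker. The labels do not say whether the 3 libraries of an antibody came from separate animals or cultures, so all p-values here measure the spread between libraries, which may be technical.

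TGF-β ligands are secreted in a latent form and, once released, bring together a type II receptor (encoded by *Tgfbr2*) and a type I receptor (encoded by *Tgfbr1*), both of which are serine/threonine kinases. The type I receptor phosphorylates SMAD2 and SMAD3, which join SMAD4 and move to the nucleus to bind DNA with other factors. SMAD7 is an inhibitor that the pathway itself induces. In smooth muscle the pathway is known for promoting contractile gene expression and matrix production.

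The libraries held 14284532 to 23992352 fragments, and every PBRM1 library was deeper than every BRG1 library. Signal is given as the pileup (the number of fragments over the summit of a peak) per 1000000 fragments of that library, abbreviated FPM. At the 18 sites of these genes found in all 6 lists the pileup behind each value was 16 to 59 fragments, with a median of 26.5, so single values are coarse. Across the 12828 sites of the series in all 6 lists, the median log2 difference was 0.49 in favor of BRG1 (a ratio of 1.40). Each difference below is therefore given both as measured and after every library was centred on its own median. Promoter peaks in all 6 lists were present at 3 of 8 smooth muscle marker genes (*Acta2*, *Tagln* and *Smtn*), 0 of 7 epithelial, 1 of 4 endothelial (*Tek*), 0 of 4 blood cell and 0 of 4 fibroblast or mesothelial markers. The share of all protein-coding genes was 41.8%. In the same order, peaks in all 3 BRG1 libraries were at 5, 0, 2, 0 and 1 markers, beside 50.0% of protein-coding genes. For all 3 PBRM1 libraries the counts were 3, 0, 1, 0 and 1, beside 44.2%. *Cnn1*, which encodes the smooth muscle protein calponin, had no promoter peak in any of the 8 lists. Promoter peaks are not a measure of expression, and the makeup of the cells was not tested.

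Sequences of the sites on which the comparisons turn are shown 5′ to 3′ on the strand of the gene. The promoter entries are the 250 bases before the RefSeq start on GRCm38.p6 of the 3 receptor and SMAD genes whose six-list promoter site covered that sequence. The RefSeq promoter table held 5 of the 10 genes. The other entries are 300 bases around the summit, for the antibody-specific sites (*Tgfb1* +1.1 kb and *Tgfb2* +10.4 kb) and for 3 distal sites found in all 6 lists. Distances are from the first annotated start of the gene, positive toward its end. Capitals mark matches on either strand to CAGAC (the short SMAD motif), GTCTAGAC (a SMAD palindrome), GGCGCC (a GC-rich SMAD site), TGANTCA (AP-1), GGAATG (TEAD) or the CArG box of SRF.
Tgfbr1 promoter (chr4:47352972-47353221, + strand): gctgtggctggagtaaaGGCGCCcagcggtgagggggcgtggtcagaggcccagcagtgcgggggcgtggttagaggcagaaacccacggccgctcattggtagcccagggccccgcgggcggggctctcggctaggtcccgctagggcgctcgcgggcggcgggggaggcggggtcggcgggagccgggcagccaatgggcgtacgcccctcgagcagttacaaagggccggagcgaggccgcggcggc
Tgfbr2 promoter (chr9:116175364-116175613, - strand): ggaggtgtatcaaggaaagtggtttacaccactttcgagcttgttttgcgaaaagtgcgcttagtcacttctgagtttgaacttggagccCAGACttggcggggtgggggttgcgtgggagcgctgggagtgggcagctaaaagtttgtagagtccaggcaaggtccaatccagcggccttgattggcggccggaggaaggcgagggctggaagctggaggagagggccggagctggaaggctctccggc
Smad3 promoter (chr9:63757995-63758244, - strand): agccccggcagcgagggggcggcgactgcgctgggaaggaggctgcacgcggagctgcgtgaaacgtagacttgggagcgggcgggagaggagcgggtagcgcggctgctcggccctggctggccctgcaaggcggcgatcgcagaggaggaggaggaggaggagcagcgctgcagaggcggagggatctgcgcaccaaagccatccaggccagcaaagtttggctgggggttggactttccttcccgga
Tgfb1 +1.1 kb, BRG1 lists only (chr7:25687969-25688268, + strand): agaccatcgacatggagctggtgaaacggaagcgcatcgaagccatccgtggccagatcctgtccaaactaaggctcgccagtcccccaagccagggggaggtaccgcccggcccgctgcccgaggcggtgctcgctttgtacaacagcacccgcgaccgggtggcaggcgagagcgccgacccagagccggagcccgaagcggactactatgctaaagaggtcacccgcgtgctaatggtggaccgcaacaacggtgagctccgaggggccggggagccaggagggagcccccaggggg
Tgfb2 +10.4 kb, PBRM1 lists only (chr1:186695434-186695733, - strand): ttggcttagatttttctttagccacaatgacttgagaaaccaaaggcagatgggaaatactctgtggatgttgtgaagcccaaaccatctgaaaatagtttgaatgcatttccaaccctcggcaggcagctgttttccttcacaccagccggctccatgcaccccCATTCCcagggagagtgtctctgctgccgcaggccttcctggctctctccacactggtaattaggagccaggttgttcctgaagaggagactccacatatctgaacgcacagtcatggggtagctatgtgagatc
Tgfb2 +95.8 kb, all lists (chr1:186610055-186610354, - strand): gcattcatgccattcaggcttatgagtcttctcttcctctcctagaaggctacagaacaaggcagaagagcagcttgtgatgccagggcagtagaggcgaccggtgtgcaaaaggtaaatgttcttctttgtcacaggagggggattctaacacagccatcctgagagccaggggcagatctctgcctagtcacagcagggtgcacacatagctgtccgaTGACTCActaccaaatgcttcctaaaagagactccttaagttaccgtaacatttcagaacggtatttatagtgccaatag
Tgfbr2 +22.2 kb, all lists (chr9:116152972-116153271, - strand): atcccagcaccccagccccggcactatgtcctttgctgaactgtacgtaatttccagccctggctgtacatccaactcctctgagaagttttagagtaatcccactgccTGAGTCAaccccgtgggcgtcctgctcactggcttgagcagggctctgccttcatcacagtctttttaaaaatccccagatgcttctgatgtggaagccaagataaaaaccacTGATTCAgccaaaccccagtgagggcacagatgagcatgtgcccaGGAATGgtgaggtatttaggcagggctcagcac
Smad3 +11.9 kb, all lists (chr9:63745989-63746288, - strand): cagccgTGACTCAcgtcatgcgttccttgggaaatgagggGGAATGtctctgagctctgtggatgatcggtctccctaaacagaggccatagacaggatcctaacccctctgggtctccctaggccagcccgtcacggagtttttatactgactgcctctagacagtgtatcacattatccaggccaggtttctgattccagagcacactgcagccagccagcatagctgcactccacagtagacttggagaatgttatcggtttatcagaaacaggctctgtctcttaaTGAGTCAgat

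Of the 83 sites, 18 lay at a promoter of their own gene (a summit within 2 kb of any annotated start), 10 lay at the promoter of another gene and 55 were distal. Of the distal sites, 42 were in introns, 8 were downstream of the gene and 5 were upstream. The 18 sites with a peak in all 6 lists were 21.7% of the 83, beside 15.5% of all sites of the series, and 36 sites (43.4%) were seen in 1 list alone, beside 47.0% of all sites. All 6 lists contained 9 of the 18 own-promoter sites but 7 of the 55 distal sites. The whole series had the same contrast: 4477 of its 57519 distal sites were in all 6 lists. Promoter sites were 65.1% of the sites in all 6 lists, beside 30.7% of all sites. The libraries called 48, 36 and 39 peaks for PBRM1 and 45, 40 and 41 for BRG1 in these windows, ranges that overlapped. The pooled lists, which the authors called on the combined fragments of an antibody, had 104 peaks for PBRM1 and 112 for BRG1. Of these, 42 and 45 overlapped no peak in any of the 6 replicate lists of either antibody.

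Sites were spread unevenly over the genes. *Tgfbr3*, which encodes the coreceptor betaglycan, held 20 sites in a window of 223.06 kb. *Smad3* held 14, *Tgfb2* 11, *Smad7* 7, *Tgfb1*, *Tgfb3* and *Tgfbr1* 6 each, *Tgfbr2* 5, and *Smad2* and *Smad4* 4 each. Per 100 kb of window the density of sites was highest at *Tgfb1* (10.3) and *Smad7* (10.2) and lowest at *Smad2* (3.66), with a median of 4.84 over protein-coding genes. *Tgfb1* also had the densest sites found in all 6 lists (5.17 per 100 kb, more than at 95.2% of protein-coding genes), but 2 of its 3 such sites were the promoters of its neighbors *B9d2* and *Ccdc97*. *Tgfb3* was the one member with no site in all 6 lists.

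**Figure D1:**
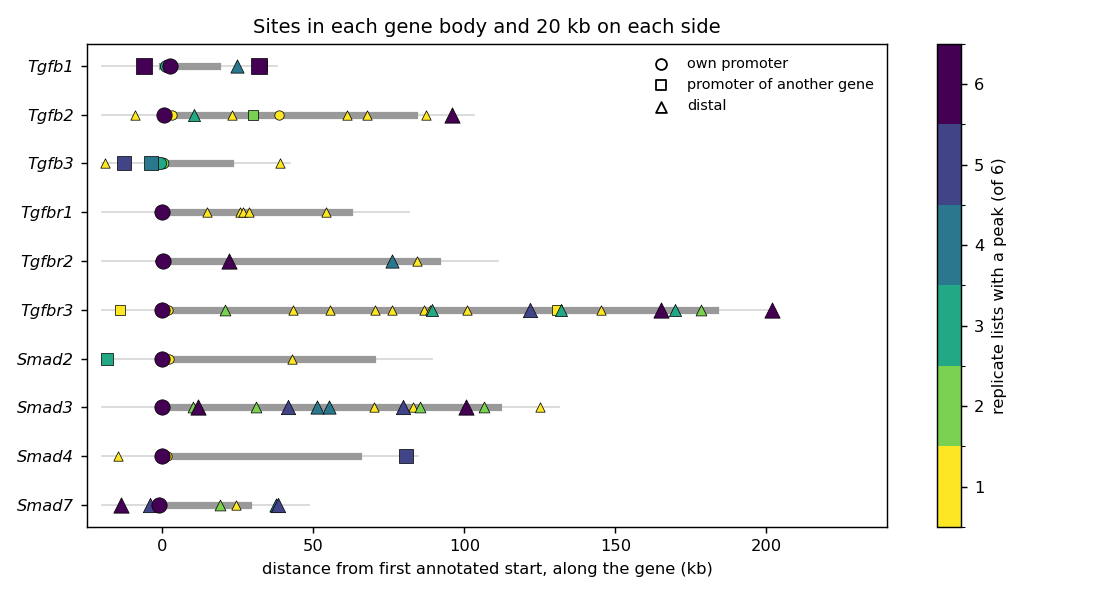
Sites of the 10 genes by distance from the first annotated start (kb), 1 row per gene. The thick grey bar is the gene body and the thin line its window of 20 kb on each side. Circles are own-promoter sites, squares promoters of another gene and triangles distal sites, and color and size give the number of replicate lists with a peak. Own-promoter sites in all 6 lists sit within 1 kb of the first start at 8 of the genes and at 2.485 kb in *Tgfb1*, and *Tgfb3* has none.

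The first comparison asked which promoters carried both proteins. A promoter peak was found in all 3 PBRM1 libraries at 9 of the 10 genes (44.2% of protein-coding genes), in all 3 BRG1 libraries at 9 (50.0%) and in all 6 libraries at 9 (41.8%). The gene that differed was *Tgfb3*. Its promoter had a peak in 1 PBRM1 library (1.06 FPM) and 2 BRG1 libraries (1.38 and 1.73 FPM at the stronger peak of each), and PBRM1 replicates 2 and 3 and BRG1 replicate 2 had none. Both pooled lists had a peak there, at 0.937 FPM for PBRM1 and 1.22 for BRG1. The count depended on the strength asked of a peak: with a −log10 q of at least 5, 5 genes had a promoter peak in every PBRM1 library, 8 in every BRG1 library and 4 in all 6. The shares of all protein-coding genes at that q are not given here, so the fall cannot be set against other genes.

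The position of the promoter sites relative to the starts differed among the genes. At *Tgfbr1*, *Smad2*, *Smad3* and *Smad4* the strongest summit lay at -0.132 to -0.147 kb from the first start. At *Tgfbr3*, *Tgfbr2* and *Tgfb2* it lay within the 5′ UTR. The *Smad7* site was at -0.968 kb, and no peak of a replicate list lay over the first start itself. At *Tgfb1* the site in all 6 lists was at 2.485 kb, 560 bp after the start of a shorter noncoding transcript, and no six-list site lay at the first start. The summits of the 6 lists fell within 91 bp of each other at *Smad3* and within 865 bp at *Tgfbr2*, with a median of 169 bp over the 9 promoters.

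The second comparison asked whether either protein was stronger at these sites. All differences are log2 values, BRG1 minus PBRM1, fitted with limma across the 12828 sites with Benjamini-Hochberg adjustment. Before centring, BRG1 was higher at 8 of the 9 own promoters found in all 6 lists and PBRM1 at 0. Of all 12828 sites, 53.0% were called BRG1 higher and 0.413% PBRM1 higher, and among the promoter sites 69.4% were called BRG1 higher. The 3 BRG1 values lay above the 3 PBRM1 values at the same 8 promoters, beside 70.8% of the 8351 promoter sites in all 6 lists. After centring, 4.69% of the 12828 sites were called in either direction, and 0 of the 18 member sites. Over the 18, 3 had an unadjusted p below 0.05 in that fit, in opposite directions. The promoters of *Smad2* (0.48) and *Tgfbr1* (0.35) lay toward BRG1 and the distal *Tgfbr2* +22.2 kb (-0.42) toward PBRM1. The share of all sites below that unadjusted p is not given here. The authors' fold enrichment, which divides the pileup by the local background of the same library, gave a call at 1 of the 18 sites. Of all 12828 sites it called 1371 BRG1 higher and 28 PBRM1 higher.

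Among the ligands, *Tgfb1* encodes the isoform most widely expressed in adult tissues. Its site (chr7:25688873-25689863) had 1.47, 1.38 and 1.25 FPM in the PBRM1 libraries and 1.95, 2.17 and 2.00 in the BRG1 libraries. The groups did not overlap, and the log2 difference was 0.58 ± 0.19 (SE, adjusted p = 0.0093), 0.11 after centring and -0.08 by fold enrichment. *Tgfb2*, whose product is one of the TGF-β isoforms, had 1.36, 1.05 and 1.38 FPM for PBRM1 and 1.82, 1.68 and 2.06 for BRG1 at its promoter (chr1:186705119-186705909). Every BRG1 library was again above every PBRM1 library, by 0.56 ± 0.20 on the log2 scale (adjusted p = 0.015) and by 0.10 after centring.

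Among the receptors, *Tgfbr1* had the strongest promoter site of the 9 (chr4:47352833-47353462), with 1.62, 1.88 and 1.46 FPM for PBRM1 and 3.33, 2.80 and 2.59 for BRG1. Its mean over the 6 libraries was above that of 82.3% of the promoter sites in all 6 lists. The log2 difference was 0.82 ± 0.18 (adjusted p = 0.00018), and 0.35 after centring (adjusted p = 0.18). At the promoter of *Tgfbr2* (chr9:116174398-116175759), the PBRM1 libraries had 1.26, 1.43 and 1.04 FPM and the BRG1 libraries 2.01, 2.17 and 2.19. The difference there was 0.78 ± 0.20 (adjusted p = 0.00078), and 0.32 after centring (adjusted p = 0.29). *Tgfbr3* had the lowest values of the 8 promoters called BRG1 higher (chr5:107288821-107289699), with 1.26, 1.10 and 0.750 FPM for PBRM1 and 1.64, 1.40 and 1.46 for BRG1. The lowest BRG1 value exceeded the highest PBRM1 value, and the difference was 0.56 ± 0.21 (adjusted p = 0.023), or 0.09 after centring.

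Among the SMAD genes, *Smad2* had the largest difference of the 18 sites (chr18:76240984-76241638). The PBRM1 libraries had 1.47, 1.21 and 1.17 FPM and the BRG1 libraries 2.39, 2.52 and 2.46, a BRG1 signal 1.93 times that of PBRM1. The difference was 0.95 ± 0.19 (adjusted p = 5.5e-05), and 0.48 after centring (adjusted p = 0.083). It was the one site still called with the authors' fold enrichment. *Smad3*, the other receptor-activated transducer, had 1.77, 1.21 and 1.50 FPM for PBRM1 and 2.14, 2.59 and 2.26 for BRG1 at its promoter (chr9:63757747-63758597). Its groups were also separate, with a difference of 0.65 ± 0.19 (adjusted p = 0.0032), or 0.19 after centring.

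*Smad4*, the partner shared by the activated SMADs, was the promoter at which the groups overlapped (chr18:73703780-73704378). PBRM1 had 1.01, 1.71 and 0.917 FPM and BRG1 1.89, 1.19 and 1.40, so that PBRM1 replicate 2 lay above 2 of the 3 BRG1 libraries. The difference did not pass the test (0.33 ± 0.22, adjusted p = 0.19; -0.14 after centring). It rested on single libraries: without PBRM1 replicate 2 it was 0.60 and passed (adjusted p = 0.031), whereas it was 0.15 without BRG1 replicate 1 (adjusted p = 0.63), 0.16 without PBRM1 replicate 3 (adjusted p = 0.60) and 0.23 without PBRM1 replicate 1 (adjusted p = 0.45), and over the 6 such fits it ranged from 0.15 to 0.60. For the inhibitor *Smad7* the promoter site (chr18:75366432-75366988) had 1.72, 1.54 and 1.17 FPM for PBRM1 and 2.08, 2.17 and 2.00 for BRG1. Here the groups did not overlap and the difference was 0.51 ± 0.19 (adjusted p = 0.021), with 0.05 after centring and -0.07 by fold enrichment.

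**Figure D2:**
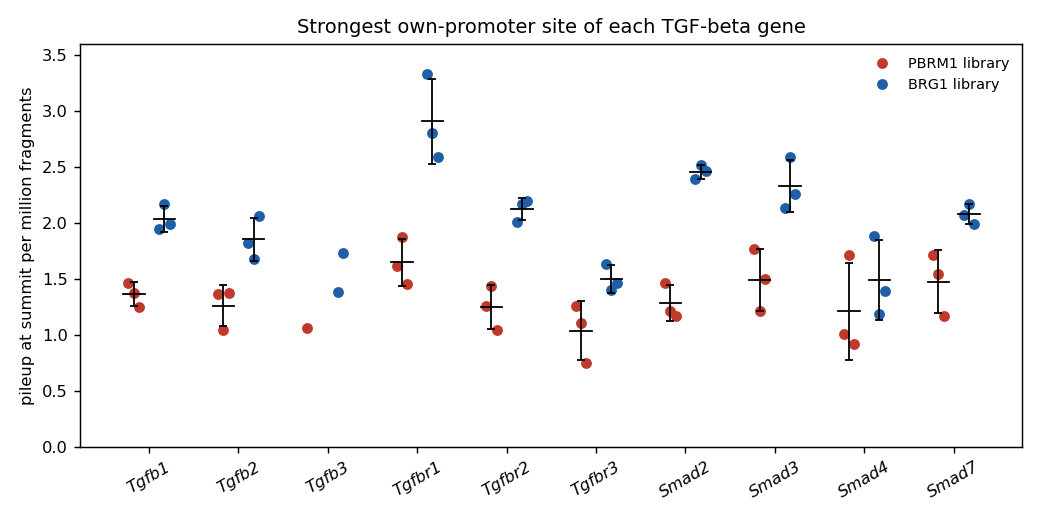
Pileup at the summit in FPM (y axis) at the strongest own-promoter site of each gene, with red points for PBRM1 libraries, blue for BRG1 libraries, and bars for the mean ± SD of 3 libraries. The BRG1 points lie above the PBRM1 points at 8 genes, overlap with them at *Smad4*, and *Tgfb3* shows 1 PBRM1 and 2 BRG1 points, since the other libraries had no peak.

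The 9 own promoters lay around the middle of the promoters of the whole series. Their median difference was 0.58 beside 0.59 for the 8351 promoter sites in all 6 lists, and 0.11 beside 0.12 after centring. The centred difference was above 0 at 8 of the 9, with *Smad4* below. After centring, the 3 BRG1 values stayed above the 3 PBRM1 values at 4 of them (*Tgfb1*, *Tgfbr1*, *Tgfbr2* and *Smad2*), beside 19.5% of all such promoter sites.

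When each library was left out in turn, the calls at *Tgfb1*, *Tgfbr1*, *Tgfbr2*, *Smad2* and *Smad3* held in all 6 fits, and those at *Tgfb2*, *Tgfbr3* and *Smad7* did not. The *Tgfb2* promoter was at 0.43 without PBRM1 replicate 2 (adjusted p = 0.096) and 0.48 without BRG1 replicate 3 (adjusted p = 0.081). *Tgfbr3* was at 0.34 without PBRM1 replicate 3 (adjusted p = 0.20), 0.50 without BRG1 replicate 1 (adjusted p = 0.089) and 0.58 without BRG1 replicate 3 (adjusted p = 0.053). *Smad7* was at 0.35 without PBRM1 replicate 3 (adjusted p = 0.13), 0.51 without BRG1 replicate 1 (adjusted p = 0.054) and 0.48 without BRG1 replicate 2 (adjusted p = 0.063). All of these values kept the direction of the full fit.

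The promoters of neighbors within the *Tgfb1* window gave the remaining promoter sites found in all 6 lists. The site of *B9d2*, which encodes a ciliary transition zone protein, had 2.48, 2.87 and 2.46 FPM for PBRM1 and 2.89, 3.64 and 3.79 for BRG1, the highest mean among the 18 sites. Its difference was 0.40 ± 0.17 (adjusted p = 0.037), -0.07 after centring and -0.17 by fold enrichment, and it missed the threshold without PBRM1 replicate 1 (0.36, adjusted p = 0.081), PBRM1 replicate 3 (0.36, adjusted p = 0.078), BRG1 replicate 2 (0.35, adjusted p = 0.12) or BRG1 replicate 3 (0.32, adjusted p = 0.17). At *Ccdc97* the difference was 0.31 ± 0.20 (adjusted p = 0.19), -0.16 after centring and -0.18 by fold enrichment.

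The third comparison concerned the 7 distal sites found in all 6 lists. These sites lay at 5 genes, with 2 each at *Smad3* and *Tgfbr3* and 1 each at *Tgfb2*, *Tgfbr2* and *Smad7*, and *Tgfb1*, *Tgfb3*, *Tgfbr1*, *Smad2* and *Smad4* had none. Their median difference was 0.29, beside 0.27 for the 4477 distal sites in all 6 lists, and -0.17 beside -0.19 after centring. The 3 BRG1 values lay above the 3 PBRM1 values at 1 of the 7, beside 30.8% of all distal sites, and 1 was called BRG1 higher, beside 22.4%.

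The intronic site of *Tgfbr2* at +22.2 kb (chr9:116152890-116153627) had nearly equal signal in the groups. PBRM1 had 1.26, 1.32 and 1.54 FPM and BRG1 1.70, 1.40 and 1.20, and the groups overlapped. The log2 difference was 0.05 ± 0.21 (adjusted p = 0.85), and it was -0.42 after centring (adjusted p = 0.19), the lowest of the 18 sites on that scale. With 1 library left out it ranged from -0.08 (without BRG1 replicate 1) to 0.17 (without BRG1 replicate 3), with no call. The promoter of the same gene stood 0.32 above 0 after centring, so that these sites of 1 gene lay on opposite sides of the median of all sites, although neither passed the test and the difference between them was not tested.

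At *Smad3* the site at +11.9 kb (chr9:63745736-63746721) had 1.52, 1.49 and 1.17 FPM for PBRM1 and 1.45, 1.75 and 1.60 for BRG1. The groups overlapped, and the difference was 0.21 ± 0.20 (adjusted p = 0.38), with -0.26 after centring. The site at +100.7 kb (chr9:63656987-63657729) had 1.06, 1.27 and 0.834 FPM for PBRM1 and 1.32, 1.12 and 1.40 for BRG1. It did not pass the test either (0.29 ± 0.22, adjusted p = 0.24), and was -0.17 after centring. Both values shifted with single libraries left out, from 0.08 (without PBRM1 replicate 3) to 0.28 (without BRG1 replicate 1) at +11.9 kb and from 0.13 (without PBRM1 replicate 3) to 0.44 (without PBRM1 replicate 2) at +100.7 kb, and neither passed in any of the 6 fits. By fold enrichment both *Smad3* sites were slightly below 0 (-0.12 and -0.08).

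*Tgfbr3* had a site beyond its end at +202.0 kb (chr5:107086900-107087835), with 1.57, 1.10 and 1.17 FPM for PBRM1 and 1.70, 1.40 and 2.46 for BRG1. This was the one distal site called BRG1 higher (0.51 ± 0.21, adjusted p = 0.030), although the groups overlapped. Without BRG1 replicate 3, which was highest, the difference was 0.29 and did not pass (adjusted p = 0.31). It also missed the threshold without PBRM1 replicate 2 (0.41, adjusted p = 0.11) or PBRM1 replicate 3 (0.46, adjusted p = 0.087), and after centring all 6 libraries it was 0.05. Its intronic site at +165.2 kb (chr5:107124085-107125065) had 1.62, 1.05 and 1.25 FPM for PBRM1 and 1.51, 1.75 and 1.66 for BRG1. That difference was 0.35 ± 0.20 (adjusted p = 0.13), or -0.12 after centring, and it ranged from 0.20 without PBRM1 replicate 2 (adjusted p = 0.45) to 0.52 without PBRM1 replicate 1 (adjusted p = 0.052).

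*Tgfb2* had a site downstream of the gene at +95.8 kb (chr1:186609990-186610547), the one distal site whose groups did not overlap. The values were 0.909, 1.05 and 0.875 FPM for PBRM1 and 1.26, 1.47 and 1.06 for BRG1, and the difference missed the threshold (0.41 ± 0.22, adjusted p = 0.099; -0.05 after centring). Upstream of *Smad7* at -13.8 kb (chr18:75353543-75354244), PBRM1 had 1.11, 1.16 and 0.792 FPM and BRG1 1.20, 1.12 and 1.06. These overlapped, with a difference of 0.16 ± 0.22 (adjusted p = 0.53) and of -0.31 after centring, and from -0.01 without PBRM1 replicate 3 to 0.26 without PBRM1 replicate 2, with no call.

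**Figure D3:**
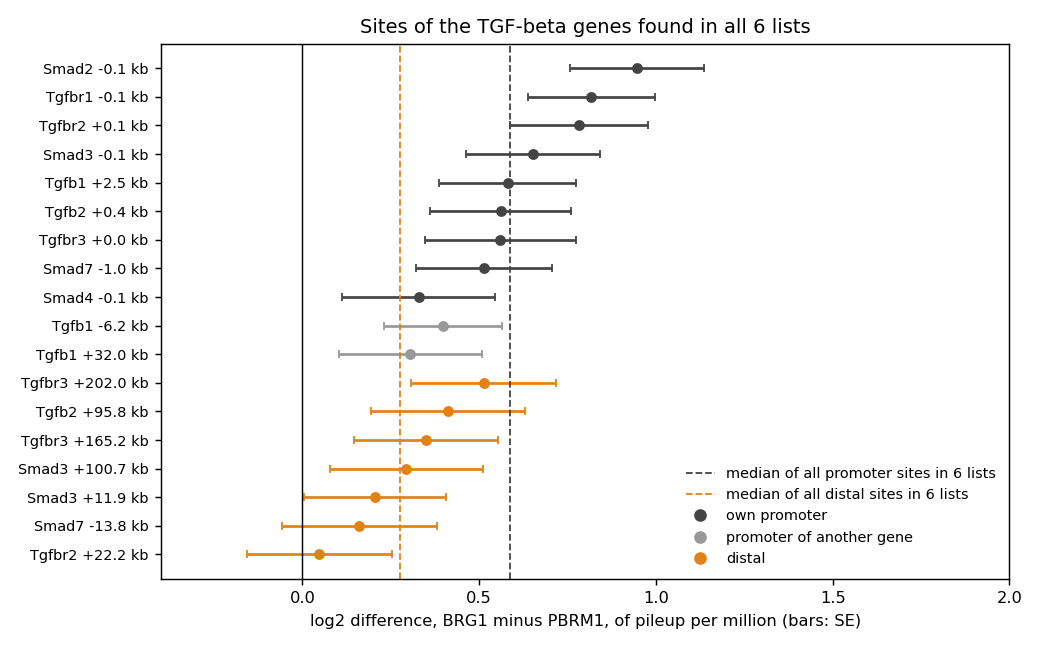
Log2 difference, BRG1 minus PBRM1, of pileup in FPM (x axis, bars are the SE of the fit) at the 18 sites found in all 6 lists. Dark points are own promoters, light grey points promoters of another gene and orange points distal sites, and dashed lines mark the medians of all promoter (0.59) and distal (0.27) sites in all 6 lists. The own promoters range from 0.33 to 0.95 and the distal sites from 0.05 to 0.51.

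**Figure D4:**
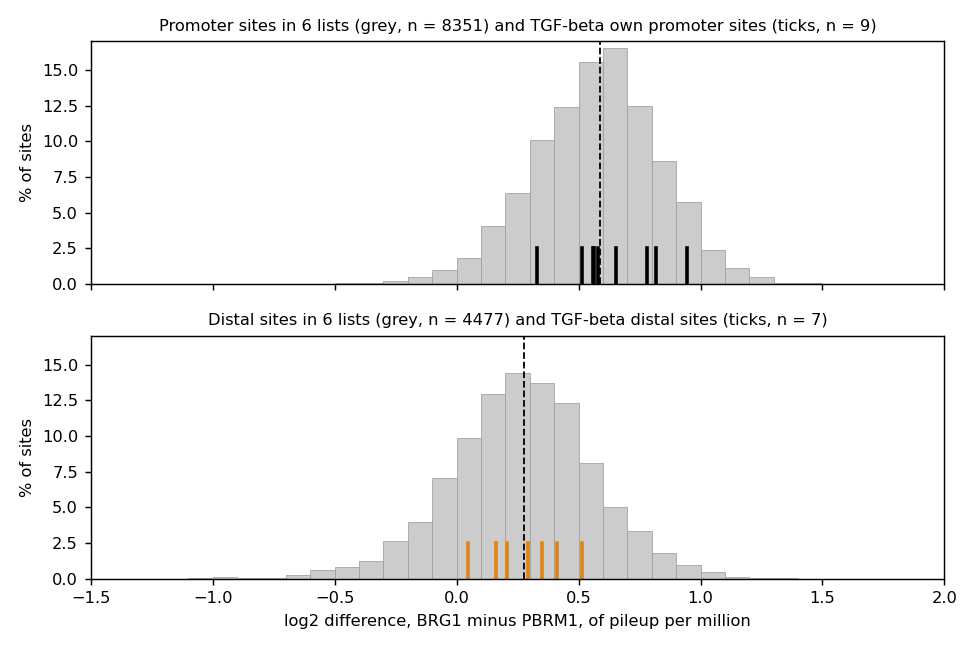
Distribution of the log2 difference, BRG1 minus PBRM1 (x axis), as the percentage of sites per bin of 0.1 (y axis), for the 8351 promoter and 4477 distal sites in all 6 lists. Ticks are the own-promoter (n = 9) and distal (n = 7) sites of the TGF-β genes and dashed lines the medians of all sites, and the ticks fall on both sides of each median.

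Of the 83 sites, 25 had peaks in BRG1 lists alone and 16 in PBRM1 lists alone, and most of these were seen in a single library (23 and 13). Of all 82949 sites, 21214, 3265 and 760 were in 1, 2 and 3 BRG1 lists alone. For PBRM1 lists alone these counts were 17754, 3361 and 1011. In the whole series BRG1 alone was thus the more frequent at sites of 1 list, and PBRM1 alone at sites of 2 or 3 lists. *Tgfb1* had a site with a peak in all 3 BRG1 libraries and no PBRM1 library, out of 83 sites (1 site, beside 0.916% of all sites of the series). It lay at +1.1 kb in a coding exon, 29 bp before the start of a shorter transcript (chr7:25688040-25688296), with 1.76, 1.75 and 2.00 FPM. The pooled PBRM1 list did have a peak there, at 0.791 FPM beside 1.75 in the pooled BRG1 list, so PBRM1 fragments were present although no single PBRM1 library reached the calling threshold.

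*Tgfb2* had the opposite kind of site, with a peak in all 3 PBRM1 libraries and no BRG1 library (1 site, beside 1.22% of all sites). It lay in an intron at +10.4 kb (chr1:186695206-186695804), with 1.11, 0.828 and 0.917 FPM and a fold enrichment of 3.43 to 4.70. The pooled PBRM1 list had it at 0.937 FPM, and neither the pooled BRG1 list nor any BRG1 library had a peak. The absence of a called peak sets no value for BRG1 there, since a peak list holds no signal below its threshold.

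The distal sites were also counted by the lists that held them. The 13 distal sites of *Smad3* were seen 7, 8 and 9 times in the PBRM1 libraries and 5, 6 and 6 times in the BRG1 libraries. The share of all genes with such separate counts is not given here. PBRM1 had more lists than BRG1 at 6 of the 13, BRG1 at 3, and 4 were equal. *Smad7* had 3 distal sites with more PBRM1 lists, 0 with more BRG1 lists and 3 equal. *Tgfbr3* went the other way, with 9 distal sites with more BRG1 lists, 3 with more PBRM1 lists and 4 equal. Over all 55 distal sites, 25 had more BRG1 lists and 16 more PBRM1 lists, beside 42.0% and 39.6% of the 57519 distal sites of the series. The PBRM1 libraries were deeper, and the part of depth in these counts was not tested. With 3 libraries against 3, an exact permutation test of such counts cannot give a p below 0.1. Of the sites of the 10 genes, 7 were found in 5 of the 6 lists, 5 of them distal.

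The promoter and distal sites differed in base composition. In 300 bases centred on the summit, GC content was 64.3% to 76.3% at the 9 own promoters, beside a median of 63.7% for all promoter sites in all 6 lists, and 44.0% to 55.0% at the 7 distal sites, beside 49.7%. The *Tgfbr1* window was the richest in GC, above 99.2% of those promoter sites. The GC box GGGCGG was in 8 of the 9 own-promoter windows, with *Tgfbr2* as the exception, beside 65.5% of all promoter sites, and in 0 of the 7 distal windows, beside 12.9%. GGCGCC was in 6 of the 9 own-promoter windows (23.9% of all promoter sites) and in 0 of the 7 distal ones (4.47%). These letters can overlap a GC box, and their relation to GC content was not tested.

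The short SMAD motif CAGAC was in 3 of the 9 own-promoter windows (*Smad2*, *Smad4* and *Smad7*), beside 49.3% of all promoter sites, and in 3 of the 7 distal windows, beside 61.6%. The distal window of *Smad7* at -13.8 kb held 4 matches. The palindrome GTCTAGAC and the CArG box had no match in the 16 windows, and they were in 0.299% and 1.40% of all promoter sites and in 0.469% and 2.28% of all distal sites. CCAAT was in 3 of 9 and 3 of 7 windows, beside 39.3% and 29.8%.

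AP-1 letters (TGANTCA) were in 4 of the 7 distal windows (*Tgfb2* +95.8 kb, *Tgfbr2* +22.2 kb, *Smad3* +11.9 kb and *Smad7* -13.8 kb), beside 31.9% of all distal sites, and in 1 of the 9 own promoters (*Tgfbr2*), beside 6.32%. The windows of *Tgfbr2* +22.2 kb and *Smad3* +11.9 kb, shown above, each held 2 such matches and 1 match to GGAATG. The TEAD letters were in 4 of the 7 distal windows (25.6% of all distal sites) and in 2 of the 9 own-promoter windows (11.0%). Of the antibody-specific sites, the window of *Tgfb2* +10.4 kb had 1 match to GGAATG and that of *Tgfb1* +1.1 kb had none of the letters in capitals. Of the promoters shown, *Tgfbr1* held GGCGCC (9.59% of 32851 RefSeq promoter sequences of that length), *Tgfbr2* held CAGAC (42.2%) and *Smad3* held neither. The SMAD palindrome, AP-1, TEAD and CArG letters, in 0.167%, 6.75%, 12.6% and 1.47% of those sequences, were in none of the 3. A match of letters is not a bound factor.

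Among 43 further genes of the pathway, 21 had a promoter peak in all 6 libraries, 23 in all 3 PBRM1 libraries and 29 in all 3 BRG1 libraries, beside 41.8%, 44.2% and 50.0% of protein-coding genes. All 3 BRG1 values lay above all 3 PBRM1 values at 16 of the 21, beside 70.8% of all promoter sites in all 6 lists. By group, all 6 libraries had a promoter peak at 6 of 12 genes of the latent complex and its activation, 3 of 7 related receptors, 3 of 4 other SMADs, 4 of 8 SMAD inhibitors, ligases and corepressors, 1 of 3 coactivators and adaptors, and 4 of 9 well-known targets.

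Genes with a peak in all 6 libraries are named by their mean signal, the 2 highest of each group. In the latent complex and activation group these were *Thbs1* (1.80 FPM) and *Itgav* (1.71), which encode a matrix protein and an integrin chain that can release the ligand. Among related receptors they were *Bambi* (2.62), which encodes a pseudoreceptor without a kinase domain, and the activin receptor gene *Acvr1b* (1.42). The inhibitory *Smad6* (2.23) and the BMP transducer *Smad1* (1.88) were highest among the other SMADs. *Ski* (2.42), a corepressor gene, and *Ppm1a* (1.72), a phosphatase gene, followed in the inhibitor group. *Zfyve9* (1.26), which encodes the adaptor SARA, was the one gene of its group with a value in all 6. Among targets, *Junb* (2.73) and *Acta2* (1.45) were highest.

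No replicate library had a promoter peak at *Eng*, the gene of the endothelial coreceptor endoglin, although both pooled lists had one there.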

How the data were processed

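The 8 deposited peak lists were used: 6 of single PBRM1 and BRG1 libraries and 2 of each antibody's pooled replicates, which entered no test. The submitters' processing notes name cutadapt, Bowtie2, MACS2 and GRCm38.p5. Duplicate and mapping filters are not given in the sources used here. Per the file headers, the authors called peaks with MACS 2.2.7.1 at a q cutoff of 0.05, with no control file. The deposited pileup is signal (fragment coverage) at the summit, unscaled. Fold enrichment, also deposited, is a ratio of pileup to the background around the peak. The deposited −log10 q is the authors' value for each peak, and peak length is in bp.

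Pileup was divided by the header's fragment total and given per 1000000 (FPM). Peaks sharing at least 1 bp were merged into sites with pandas 2.3.3, and log2 values of sites in all 6 lists were fitted with limma 3.58.1 (trend, R 4.3.3, threshold 0.05), with no pseudocount. The fit was also tested on simulated data, which held no shift common to all sites of an antibody. Merging can join neighboring peaks, and sites in all 6 lists are by construction those with signal for both antibodies. Bases came from GRCm38.p6 through pysam 0.24.0. All 10 genes are named, with every own-promoter site in all 6 lists, every distal site in all 6 lists and every site in all 3 lists of 1 antibody alone. Of the other pathway genes, those without a promoter peak in any of the 6 lists and the 2 highest of each group are named, except for a result that is not reported here. The genes, gene lists and tests were chosen with earlier results of these data known. Alternatives were centring, fold enrichment, a −log10 q of at least 5, sites in at least 3 lists, joined summits, promoter distance, window, a replicate block and each library left out. The IgG samples were not analysed here.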

Additional observations from a re-analysis of the deposited data

How the results depend on the processing

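Calls at these sites depended on the scale. Of all sites, 6799 were called BRG1 higher and 53 PBRM1 higher, beside 314 and 288 after centring, 1371 and 28 by fold enrichment, and 4502 and 366 with sites in at least 3 lists. With peaks of a −log10 q of at least 5, 4569 of 6505 sites were called BRG1 higher and 12 PBRM1 higher. The 10 member sites called BRG1 higher became 0 after centring, 1 by fold enrichment and 5 with sites in at least 3 lists. At that q 6 were called, out of 8 member sites fitted, and each of the 8 kept the result of the main fit. None of the 18 member sites in all 6 lists was called PBRM1 higher under any alternative. These counts cover the 18 alone, and other member sites that an alternative also fitted were not looked up. At a −log10 q of at least 5 the 83 member sites became 39 and the 18 in every list became 8. Over the whole series, sites in every list fell from 12828 to 6505. Promoter peaks in every PBRM1 library fell from 9 genes to 5, and in all 6 libraries from 9 to 4, and the shares of all protein-coding genes at that q are not given here.

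The direction turned after centring at *Tgfb1* -6.2 kb (-0.068), *Tgfb1* +32.0 kb (-0.16), *Tgfb2* +95.8 kb (-0.053), *Tgfbr2* +22.2 kb (-0.42), *Tgfbr3* +165.2 kb (-0.12), *Smad3* +100.7 kb (-0.17), *Smad3* +11.9 kb (-0.26), *Smad4* -0.1 kb (-0.14) and *Smad7* -13.8 kb (-0.31). By fold enrichment it turned at *Tgfb1* -6.2 kb (-0.17), *Tgfb1* +2.5 kb (-0.077), *Tgfb1* +32.0 kb (-0.18), *Tgfbr2* +22.2 kb (-0.12), *Smad3* +100.7 kb (-0.077), *Smad3* +11.9 kb (-0.12) and *Smad7* -1.0 kb (-0.066). Centring sets the median of every library to 0 by construction, and the median difference over all sites was then 0.02, beside 0.49 as measured and 0.20 by fold enrichment. Whether the common shift is biological was not tested.

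With 1 library left out, sites called BRG1 higher ranged from 5184 to 6847, sites called PBRM1 higher from 31 to 77, and member calls from 6 to 9. Member calls were 6 without PBRM1 replicate 3 or BRG1 replicate 3, 8 without BRG1 replicate 1 or 2, and 9 without PBRM1 replicate 1 or 2. The direction turned at *Tgfbr2* +22.2 kb without PBRM1 replicate 1 (-0.012) or BRG1 replicate 1 (-0.083), within a range up to 0.17, and at *Smad7* -13.8 kb without PBRM1 replicate 3 (-0.012), within a range up to 0.26. The replicate numbers are shared by the antibodies. Deviations of same-numbered libraries from their group means correlated at 6.2e-05, 0.0035 and -0.029. Differently numbered libraries ranged from -0.030 to 0.031. Whether the numbers pair the libraries cannot be told from these values, and the labels do not say. With a replicate block, 6588 sites were called BRG1 higher and 50 PBRM1 higher, and 9 member sites. Promoter counts held at a distance of 1 kb, and joined summits left 14 of the 18 sites, with 8 called. *Tgfb1* +2.5 kb, *Tgfbr2* +0.1 kb, *Tgfbr3* +165.2 kb and *Smad3* +11.9 kb had no fit in that setting.

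Depth limits these values: pileups of 16 to 59 fragments do not resolve small differences, a missing peak is not a value of 0, and without an IgG list the background of the nuclease was not subtracted.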
